A study of Mus musculus with 6 samples.

Results

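Cytosolic ribosomal protein genes encode the proteins of the large (Rpl) and small (Rps) subunit of the ribosome that translates nuclear mRNAs. They were taken as all protein-coding genes whose symbol is Rpl or Rps followed by a number and an optional a, l, x or y, together with Rplp0, Rplp1, Rplp2 and Rpsa. The rule found 79 genes among the 38561 counted, 48 of the large subunit and 31 of the small one. A further gene of the rule, Rpl24, was not analysed here, and Rps4l and Rpl6l, which the annotation types as pseudogenes, were left out. Of the 79 genes, 78 passed the filter on low counts, and Rpl10l, with at most 2 reads in a library, did not.

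The 6 RNA sequencing libraries formed 3 groups of 2, and all mice were NG2-Cre;p53flox/flox on a mixed background. Cre in these animals is driven by the promoter of Cspg4 (NG2), which pericytes use among other cells, and it removes part of Trp53, whose product p53 suppresses tumours. The groups were soft tissue sarcomas of subcutaneous tissue, osteosarcomas (replicate 1 from the right tibia, replicate 2 from the lumbar spine), and NG2 cells, which an antibody to NG2 had sorted from skeletal muscle and which carried the same alleles. No age, and no statement that the libraries came from separate animals, was given, so p-values measure only the spread between these samples. The depth, as reads assigned to genes, was 58126832 and 27693585 in the soft tissue sarcomas, 52056569 and 28107779 in the osteosarcomas, and 39453073 and 44622315 in the NG2 cell libraries.

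Ribosomal proteins are made in near-equal numbers, and their genes are mostly transcribed together. Their mRNAs belong to the TOP class, which begins with a tract of pyrimidines at the start of transcription and whose translation depends on mTOR and the binding protein Larp1. Free ribosomal proteins, foremost Rpl5 and Rpl11 in a particle with 5S ribosomal RNA, bind Mdm2 and so raise p53, which links ribosome production to the gene deleted in these mice. A few ribosomal proteins have a paralog: Rpl39l, Rpl3l and Rpl10l are known from tissues such as testis and muscle, Rps27l is a target of p53, and Rpl22l1 replaces Rpl22 when that is low.

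Promoters of 7 genes called further on, by their level or by their share of the ribosomal protein reads, and of Rpl39, the paralog of Rpl39l, are shown first, because a TOP tract begins at the start of transcription. Each line gives the 25 bases before and the 15 bases from the start of transcription in RefSeq (GRCm38), with its longest pyrimidine run in capitals (of equal runs, the one nearer the start).
Rpl39l: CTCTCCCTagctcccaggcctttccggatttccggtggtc
Rpl39: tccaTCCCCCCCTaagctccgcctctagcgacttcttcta
Rps27l: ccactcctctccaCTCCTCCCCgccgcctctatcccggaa
Rps27: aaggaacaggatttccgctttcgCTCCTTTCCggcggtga
Rps25: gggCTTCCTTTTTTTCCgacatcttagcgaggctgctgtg
Rpl23: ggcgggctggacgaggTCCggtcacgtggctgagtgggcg
Rpl35a: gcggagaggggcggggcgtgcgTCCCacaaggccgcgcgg
Rpsa: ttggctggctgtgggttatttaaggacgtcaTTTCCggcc
These stretches lie at chr16:10170203-10170242, plus strand for Rpl39l, chrX:37085208-37085247, minus strand for Rpl39, chr9:66946061-66946100, plus strand for Rps27l, and chr3:90213634-90213673, minus strand for Rps27. The others lie at chr9:44407689-44407728, plus strand for Rps25, chr11:97782425-97782464, minus strand for Rpl23, chr16:33056428-33056467, plus strand for Rpl35a, and chr9:120127741-120127780, plus strand for Rpsa. Within the 40 bases shown, the run was 14 bases long in Rps25, 9 in Rpl39, Rps27 and Rps27l, 8 in Rpl39l, 5 in Rpsa, 4 in Rpl35a and 3 in Rpl23. Only the runs of Rps27 and Rpl35a include the annotated start. Those of Rpl39l, Rpl39, Rps27l, Rps25 and Rpl23 end before it, and that of Rpsa begins after it. A run marked here is therefore not by itself a TOP tract. Genes with long and with short runs stand among those lower in the tumours (Rps25 and Rpl23) and among those higher in them (Rps27l and Rpl35a).

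Over the whole set, RefSeq windows of 300 bases, 250 before and 50 from the start, were given for 59 of the 79 genes. A run of at least 8 pyrimidines within 20 bases of the start stood in 27 of the 59 windows (45.8%), against 15.9% of all 27025 windows, and the median longest run was 7 bases against 5. The ETS factor motif CCGGAAG, searched like the others on both strands, was in 24 of the 59 (40.7%), against 9.14% of all windows. GGGCGG, the GC box, was in 59.3% against 35.9%, and AAGATGGC, the YY1 motif, in 8.47% against 2.87%. The E-box CACGTG, which Myc binds, was in 8.47% against 7.24%, CCAAT in 30.5% against 38%, and TATAAA in 10.2% against 14.2%. The reverse of the ETS motif, CTTCCGG, can overlap a pyrimidine run, and a match describes letters in the window and no bound factor.

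Of all gene counts, the 79 genes together took 5.7 and 4.84% in the soft tissue sarcomas, 5.01 and 4.31% in the osteosarcomas, and 6.83 and 5.03% in the NG2 cell libraries. The mean was 5.27 ± 0.608% in soft tissue sarcoma, 4.66 ± 0.491% in osteosarcoma and 5.93 ± 1.27% in NG2 cells (SD, n = 2 each). The soft tissue sarcomas overlapped the NG2 cells, and both osteosarcomas lay below NG2 cell replicate 2, replicate 1 only just. With the reads of named pseudogenes added, osteosarcoma replicate 1 (5.35%) was above NG2 cell replicate 2 (5.31%), so these groups then overlapped. Without mitochondrial and immunoglobulin counts they did not, at 5.14 and 4.48% in the osteosarcomas against 7.23 and 5.56% in the NG2 cells. Nor did they on protein-coding counts without the mitochondrial chromosome, at 5.33 and 4.69% against 7.73 and 5.88%. No test was run, since 2 libraries against 2 cannot reach an exact permutation p below 0.333. Large subunit genes held 3.35 and 2.97% in the soft tissue sarcomas, 3.06 and 2.52% in the osteosarcomas, and 3.98 and 3.08% in the NG2 cell libraries, and small subunit genes 2.35 and 1.87% in the soft tissue sarcomas, 1.94 and 1.79% in the osteosarcomas, and 2.84 and 1.95% in the NG2 cell libraries. The 95% Wilson interval of the share was narrow in each library (4.83% to 4.85% in soft tissue sarcoma replicate 2, and 6.82% to 6.83% in NG2 cell replicate 1). Such intervals cover counting error only, since reads amplified by PCR without molecular identifiers are not independent molecules.

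**Figure D1:**
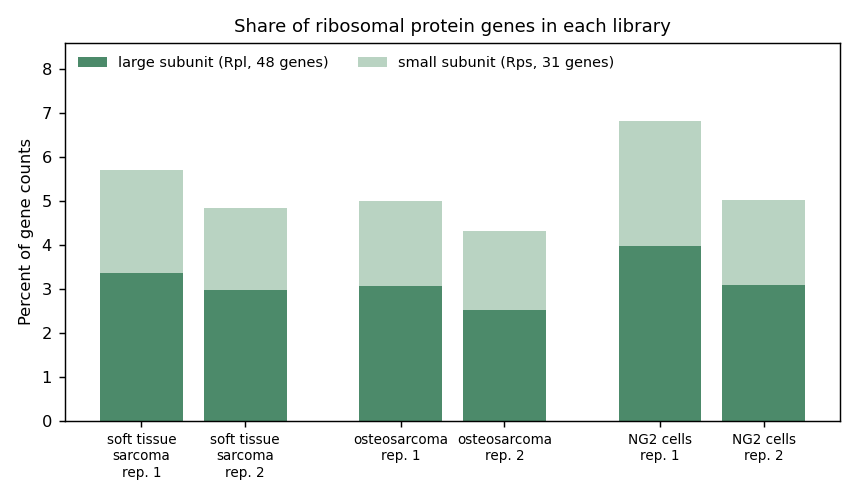
Percent of gene counts (vertical axis) on the 48 large subunit genes (dark) and 31 small subunit genes (light) in each library, 2 libraries per group. The stacked bars reach 5.70% and 4.84% in soft tissue sarcoma, 5.01% and 4.31% in osteosarcoma, and 6.83% and 5.03% in NG2 cells.

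In these genes the replicates of the NG2 cells lay further apart, by median, than those of either tumour type. On read counts per library total, scaled by TMM to CPM, the 78 tested genes had a median log2 difference of 0.66 between replicate 1 and replicate 2 of the NG2 cells, with 75 genes higher in replicate 1 and 3 in replicate 2. The same median was 0.23 in soft tissue sarcoma (61 genes higher in replicate 1) and 0.17 in osteosarcoma (60 genes). Over all 19024 genes tested these medians were 0.02 in soft tissue sarcoma and 0 in the other groups. The median CPM of a ribosomal protein gene was 466 and 415 in the soft tissue sarcomas, 478 and 402 in the osteosarcomas, and 660.5 and 394 in the NG2 cell libraries.

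Marker genes of several cell types differed between the groups. The summed markers of B and plasma cells (10 genes) came to 11.8 and 15.7 CPM in the soft tissue sarcomas, 3.05 and 6.51 CPM in the osteosarcomas, and 5892 and 3702 CPM in the NG2 cell libraries, and all 10 were lower in both tumour types (edgeR adjusted p below 0.05). Jchain and Ms4a1 were at 0 in both osteosarcomas. T cell markers summed to 28.2 and 17.2 CPM in the soft tissue sarcomas, 5.25 and 16.4 CPM in the osteosarcomas, and 493 and 690.5 CPM in the NG2 cell libraries, with 6 of 8 lower in each tumour type, and neutrophil markers to 12.8 and 19 CPM in the soft tissue sarcomas, 21.6 and 27 CPM in the osteosarcomas, and 65.6 and 3305 CPM in the NG2 cell libraries. Immunoglobulin genes took up to 0.00909% of a tumour library's counts, against 0.974% and 5.1% for NG2 cell replicates 1 and 2. Macrophage markers summed to 3318 and 2662 CPM in the soft tissue sarcomas, 1392 and 1656 CPM in the osteosarcomas, and 418 and 677 CPM in the NG2 cell libraries, pericyte markers to 484 and 369 CPM in the soft tissue sarcomas, 336 and 776 CPM in the osteosarcomas, and 901 and 1448 CPM in the NG2 cell libraries, and endothelial markers to 199 and 147 CPM in the soft tissue sarcomas, 118 and 351 CPM in the osteosarcomas, and 938 and 1559 CPM in the NG2 cell libraries. Cspg4, the gene of the sorted NG2 protein, had 188 and 88.7 CPM in the soft tissue sarcomas, 118 and 37.7 CPM in the osteosarcomas, and 38.6 and 30.6 CPM in the NG2 cell libraries, so its mRNA was present but not highest in the sorted cells. Rgs5 of pericytes had 151 and 81.3 CPM in the soft tissue sarcomas, 17.4 and 79.9 CPM in the osteosarcomas, and 772 and 1289.6 CPM in the NG2 cell libraries. Rgs5 alone thus made up most of the pericyte marker sum in the NG2 cells. The median log2 fold change of the 7 pericyte markers was 1.17 in osteosarcoma, with 2 called higher and 1 lower. In soft tissue sarcoma that median was -0.50, with 0 called higher and 1 lower. Osteoblast markers, at 2439 and 1840.4 CPM in the soft tissue sarcomas, 35025 and 38682 CPM in the osteosarcomas, and 96.3 and 104 CPM in the NG2 cell libraries, were all called higher in osteosarcoma, while Sp7 was at 0 in both soft tissue sarcomas and Ibsp in both NG2 cell libraries. Erythroid markers summed to 97.9 and 636 CPM in the soft tissue sarcomas, 86.9 and 25 CPM in the osteosarcomas, and 734 and 227 CPM in the NG2 cell libraries. The part of these cell types in the ribosomal protein results was not tested. In bulk RNA, fewer cells of a type and less RNA per cell cannot be told apart. The deposited library names give each group a flow cell lane of its own, so lane and group cannot be told apart. Trp53, the floxed gene, had 31.2 and 27.3 CPM in the soft tissue sarcomas, 24.3 and 32.6 CPM in the osteosarcomas, and 101 and 82.3 CPM in the NG2 cell libraries, and counts over the whole gene include exons outside the deleted part.

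Genes were ranked by their level per kilobase of exon (CPM per kb, mean of all libraries). Among the highest stood Rpl36 of the large subunit at 2994 and Rps29 of the small subunit at 1643. At the low end stood Rpl10l at 0.011, the muscle paralog Rpl3l at 0.517 and Rpl23a at 26.5, with Rpl35a next at 28.8. The length counts every annotated exon of a gene, so genes with long rare transcripts come out low. Levels across the 78 genes were correlated between all libraries. Pearson's r of log2 CPM was 0.981 between the soft tissue sarcomas, 0.964 between the osteosarcomas and 0.984 between the NG2 cell libraries. It lay between 0.851 and 0.899 for soft tissue sarcoma with NG2 cells, between 0.842 and 0.896 for osteosarcoma with NG2 cells, and between 0.938 and 0.970 for soft tissue sarcoma with osteosarcoma. These correlations are descriptions across genes that share each library's depth. The genes include Rpl3l, low in all libraries, and Rpl39l, at 0.222 and 1.63 CPM in the NG2 cell libraries. Such low values can weigh heavily on r.

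Most ribosomal protein genes moved little between tumours and NG2 cells. The comparison asks which genes differ between a bulk tumour and cells sorted by an antibody to NG2. The libraries of these sorted cells also held high levels of B and plasma cell markers, as given above. In soft tissue sarcoma against NG2 cells 70 of the 78 genes (89.7%) lay within 1 log2 unit of no change, against 45.1% of all genes tested. In osteosarcoma against NG2 cells 68 (87.2%) did, against 44.0%, and in soft tissue sarcoma against osteosarcoma 77 (98.7%), against 66.7%. The median log2 fold change of the 78 genes was -0.06 in soft tissue sarcoma and 0.03 in osteosarcoma, against 0 and 0.04 over all genes tested, and the osteosarcoma median of the 78 turned to -0.03 with DESeq2 size factors. The comparisons with NG2 cells share the same 2 NG2 cell libraries, so their values are given side by side and are not independent.

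In soft tissue sarcoma 3 of the 78 genes rose and 2 fell, beside a background of 9.89% of all genes called higher and 9.4% called lower. Rpl39l, Rps27l and Rpl35a rose, and Rps27 and Rpl23 fell. In osteosarcoma 2 genes rose (Rpl39l and Rps27l) and 5 fell, among them Rps27, Rps29, Rpl23 and Rps25, beside a background of 10.5% higher and 11% lower. A call means a Benjamini-Hochberg adjusted p below 0.05 in edgeR's quasi-likelihood test over 19024 genes. The shares of ribosomal protein genes called in either direction, 6.41% in soft tissue sarcoma and 8.97% in osteosarcoma, were below those of all genes, 19.3% and 21.5%. At an unadjusted p below 0.05, 15 of the 78 genes (19.2%) passed in each comparison, against 37.5% of all genes in soft tissue sarcoma and 39.1% in osteosarcoma.

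**Figure D2:**
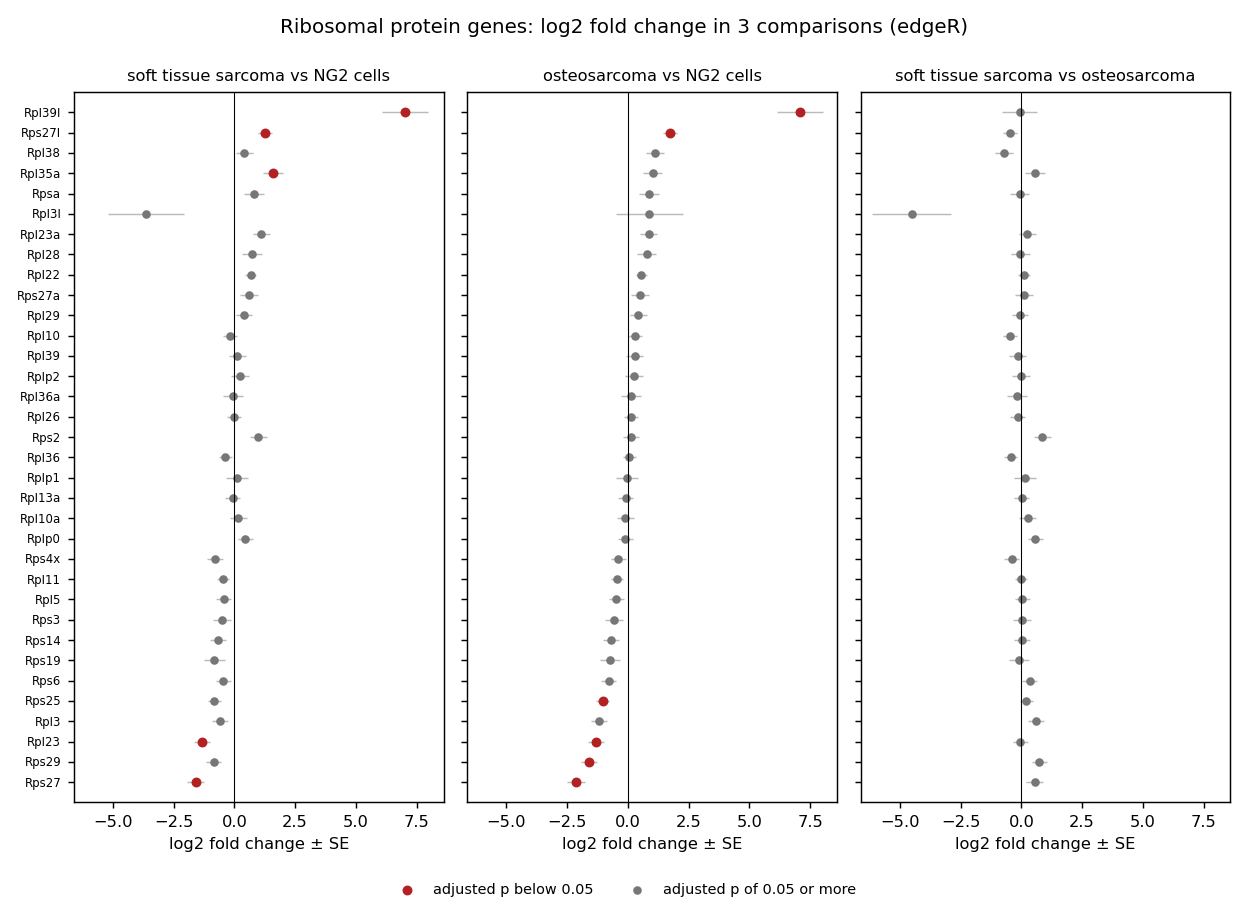
Log2 fold change with its standard error (horizontal axes) of 34 of the 78 tested ribosomal protein genes, those with values in the text, in order of their change in osteosarcoma, in 3 comparisons; red points have an edgeR adjusted p below 0.05. Rpl39l lies near 7 in both comparisons with NG2 cells and most genes lie within 1 of 0.

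Rpl39l, the autosomal paralog of the X-linked Rpl39 known for its part in the ribosomes of male germ cells, showed the largest change (ENSMUSG00000039209, chr16:10170226-10174911, plus strand, GRCm38). It had 139.7 and 104 CPM in the soft tissue sarcomas, 143 and 113 CPM in the osteosarcomas, and 0.222 and 1.63 CPM in the NG2 cell libraries. All 4 tumour libraries were above 100 CPM and both NG2 cell libraries below 2 CPM, where Rpl39l had 8 and 71 reads. It rose 130-fold in soft tissue sarcoma, a log2 fold change of 7.02 ± 0.94 (edgeR adjusted p = 0.0116), where the error is the SE and n = 2 per group, as for all fold changes. In osteosarcoma it rose 136-fold, a log2 fold change of 7.09 ± 0.95 (edgeR adjusted p = 0.00922). The tumour types overlapped, with a log2 fold change of -0.07 ± 0.72 (edgeR adjusted p = 0.989) between them. In osteosarcoma the call held with each library left out, at 6.29 without NG2 cell replicate 1 and 9.15 without replicate 2. In soft tissue sarcoma it was lost without either soft tissue sarcoma library (edgeR adjusted p = 0.0772 without replicate 1 and 0.0745 without replicate 2). The size there was 6.24 without NG2 cell replicate 1 and 9.08 without replicate 2.

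Rpl39 itself, which lines the exit tunnel of the ribosome, had 189.8 and 173 CPM in the soft tissue sarcomas, 230.4 and 173 CPM in the osteosarcomas, and 214 and 119.6 CPM in the NG2 cell libraries. Its groups overlapped, and its log2 fold change was 0.12 ± 0.35 (edgeR adjusted p = 0.831) in soft tissue sarcoma and 0.28 ± 0.35 (edgeR adjusted p = 0.596) in osteosarcoma. Of the reads on the pair, not adjusted for length, Rpl39l took 42.4 and 37.6% in the soft tissue sarcomas, 38.3 and 39.4% in the osteosarcomas, and 0.104 and 1.34% in the NG2 cell libraries. The paralog's part of the pair was thus near 40% in every tumour library and below 2% in both NG2 cell libraries.

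Rps27 and Rps27l, which encode near-identical zinc-finger proteins of the small subunit, moved in opposite directions. Rps27l (ENSMUSG00000036781, chr9:66946086-66949516, plus strand) had 222 and 172 CPM in the soft tissue sarcomas, 244 and 301 CPM in the osteosarcomas, and 76.9 and 88 CPM in the NG2 cell libraries. Every tumour library was above both NG2 cell libraries. The gene rose 2.39-fold in soft tissue sarcoma, a log2 fold change of 1.25 ± 0.28 (edgeR adjusted p = 0.0311), and 3.3-fold in osteosarcoma, 1.72 ± 0.28 (edgeR adjusted p = 0.0141). Rps27 (ENSMUSG00000090733, chr3:90212522-90213651, minus strand) had 510.1 and 395 CPM in the soft tissue sarcomas, 319 and 300.0 CPM in the osteosarcomas, and 1771 and 969 CPM in the NG2 cell libraries. It fell to a level 3.03-fold lower in soft tissue sarcoma, a log2 fold change of -1.60 ± 0.37 (edgeR adjusted p = 0.035), and 4.43-fold lower in osteosarcoma, -2.15 ± 0.37 (edgeR adjusted p = 0.0168). Among the reads on the pair, Rps27l took 30.3% in both soft tissue sarcomas, 43.3 and 50.05% in the osteosarcomas, and 4.16 and 8.33% in the NG2 cell libraries, so the groups did not overlap in this share. The summed level of the pair was 732 and 567 CPM in the soft tissue sarcomas, 563 and 601 CPM in the osteosarcomas, and 1848 and 1057 CPM in the NG2 cell libraries.

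Without NG2 cell replicate 1 the calls of both genes were lost in both tumour types. The edgeR adjusted p was then 0.0665 for Rps27l and 0.0518 for Rps27 in osteosarcoma, and 0.111 for Rps27l and 0.104 for Rps27 in soft tissue sarcoma. Rps27l also lost its call without NG2 cell replicate 2 (edgeR adjusted p = 0.0583 in osteosarcoma, 0.0958 in soft tissue sarcoma), and both genes lost it in soft tissue sarcoma without either soft tissue sarcoma library (0.134 to 0.214). All these fits kept the direction. Rps27rt, a retrocopy of Rps27 outside the rule, had 36.7 and 31.8 CPM in the soft tissue sarcomas, 26.1 and 33.6 CPM in the osteosarcomas, and 109.9 and 77.8 CPM in the NG2 cell libraries and fell in both tumour types (edgeR adjusted p = 0.0295 in soft tissue sarcoma and 0.0202 in osteosarcoma). How reads that match several of these copies were counted was not stated, so the split between them is uncertain.

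The other pairs differed in pattern. Rpl22, a large subunit protein that can be lost in tumours, had 222 and 240.2 CPM in the soft tissue sarcomas, 215 CPM in both osteosarcomas, and 161 and 131 CPM in the NG2 cell libraries, higher in all 4 tumour libraries without passing the test (edgeR adjusted p = 0.106 in soft tissue sarcoma and 0.148 in osteosarcoma). Its paralog Rpl22l1 had 77.1 and 66.1 CPM in the soft tissue sarcomas, 38.9 and 40.3 CPM in the osteosarcomas, and 154 and 98.6 CPM in the NG2 cell libraries. In osteosarcoma Rpl22l1 dropped by 1.67 on the log2 scale (edgeR adjusted p = 0.0192), and its change in soft tissue sarcoma was -0.82 ± 0.30 (edgeR adjusted p = 0.106). Of the reads on this pair Rpl22l1 took 25.7 and 21.6% in the soft tissue sarcomas, 15.3 and 15.8% in the osteosarcomas, and 48.9 and 42.9% in the NG2 cell libraries.

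Rpl3l, the paralog of Rpl3 in striated muscle, was near the detection limit, with 4 and 2 reads in the soft tissue sarcomas, 14 and 83 reads in the osteosarcomas, and 53 and 12 reads in the NG2 cell libraries. The osteosarcoma of the lumbar spine was highest at 2.95 CPM, against 0.265 CPM in that of the tibia. Muscle fibre markers summed to 46.8 and 9.4 CPM in the soft tissue sarcomas, 14.6 and 980.3 CPM in the osteosarcomas, and 88 and 75.4 CPM in the NG2 cell libraries, highest in the same library; their part in the Rpl3l reads was not tested. Rpl3 had 1297 and 1148 CPM in the soft tissue sarcomas, 941 and 674 CPM in the osteosarcomas, and 2213 and 1475 CPM in the NG2 cell libraries, and its change was -0.59 ± 0.33 (edgeR adjusted p = 0.24) in soft tissue sarcoma and -1.19 ± 0.33 (edgeR adjusted p = 0.0517) in osteosarcoma. Rpl10, which joins the large subunit last, had 386 and 331 CPM in the soft tissue sarcomas, 530.0 and 455 CPM in the osteosarcomas, and 469 and 339 CPM in the NG2 cell libraries, and its testis paralog Rpl10l had 2 reads in soft tissue sarcoma replicate 2 and none in the other libraries. A count of 0 allows up to 3 reads, 0.0516 to 0.107 CPM in the libraries concerned.

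**Figure D3:**
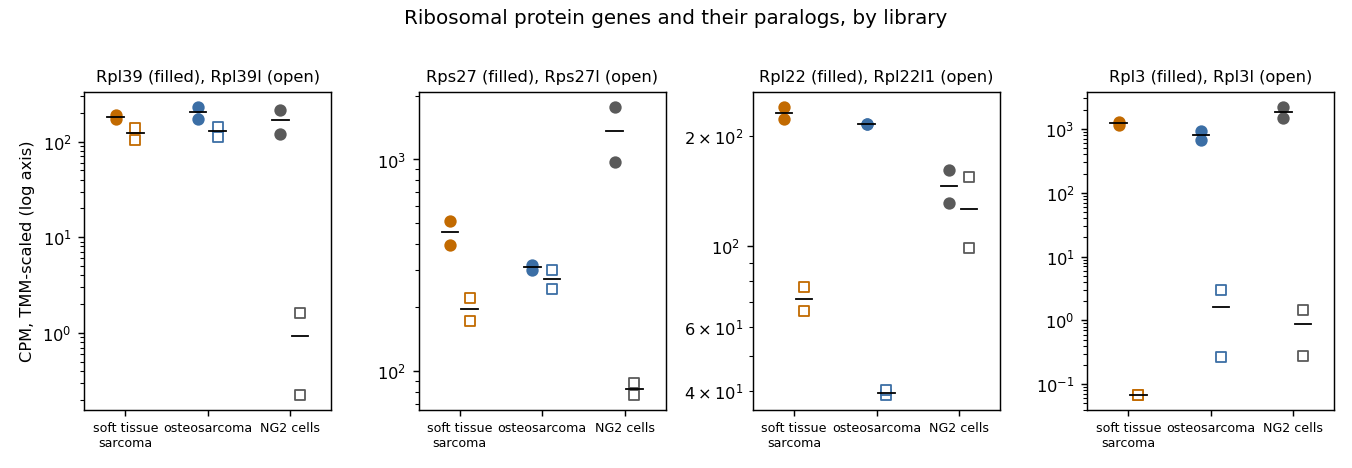
CPM on a log axis of 4 ribosomal protein genes (filled circles) and their paralogs (open squares) in each library, grouped by soft tissue sarcoma, osteosarcoma and NG2 cells, with the mean of 2 libraries as a line. Rpl39l and Rps27l lie higher in the tumours than in NG2 cells, and Rpl22l1 lies lower in the tumours.

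Among the other called genes of the large subunit, Rpl23 and Rpl35a passed in soft tissue sarcoma. Rpl23, which lies at the face between the subunits and can bind Mdm2 (ENSMUSG00000071415, chr11:97777527-97782437, minus strand), had 1524 and 1422 CPM in the soft tissue sarcomas, 1855 and 1165 CPM in the osteosarcomas, and 3548 and 3898 CPM in the NG2 cell libraries. Both NG2 cell libraries were above all tumour libraries. Rpl23 fell in both, with a log2 fold change of -1.34 ± 0.32 (edgeR adjusted p = 0.0382) in soft tissue sarcoma and -1.30 ± 0.32 (edgeR adjusted p = 0.0384) in osteosarcoma. Rpl35a, a gene mutated in Diamond-Blackfan anaemia (ENSMUSG00000060636, chr16:33056453-33060189, plus strand), had 105 and 198 CPM in the soft tissue sarcomas, 117 and 87.3 CPM in the osteosarcomas, and 60.3 and 41 CPM in the NG2 cell libraries. All 4 tumour libraries were above both NG2 cell libraries. Rpl35a rose 2.99-fold in soft tissue sarcoma, a log2 fold change of 1.58 ± 0.41 (edgeR adjusted p = 0.0459). Its change in osteosarcoma was 1.01 ± 0.40 (edgeR adjusted p = 0.121).

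These large subunit calls did not hold with each library left out, in fits with fewer samples. The log2 fold change of Rpl23 in soft tissue sarcoma then stayed between -1.39 and -1.27. In osteosarcoma it ranged from -1.71 without osteosarcoma replicate 1 to -1.005 without replicate 2. It was -1.30 and -1.34 there without soft tissue sarcoma replicates 1 and 2, which lie outside that comparison. Rpl23 lost its call in soft tissue sarcoma without either NG2 cell or either soft tissue sarcoma library (edgeR adjusted p = 0.098 to 0.221). Rpl35a lost it without the same 4 libraries (edgeR adjusted p = 0.0998 to 0.256), at a log2 fold change of 1.01 without soft tissue sarcoma replicate 2, and also with DESeq2 size factors (0.0512) or with pseudogene reads added (0.0516). In osteosarcoma Rpl23 lost its call without any library other than osteosarcoma replicate 1 (edgeR adjusted p = 0.062 to 0.114), and in a fit of only the osteosarcomas and NG2 cells (0.107).

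In the small subunit, Rps29 and Rps25 fell in osteosarcoma beside Rps27. Rps29, another gene of Diamond-Blackfan anaemia (ENSMUSG00000034892, chr12:69157722-69159186, minus strand), had 1076 and 928 CPM in the soft tissue sarcomas, 628 and 569 CPM in the osteosarcomas, and 2224 and 1409 CPM in the NG2 cell libraries. It was 3.04-fold lower in osteosarcoma, a log2 fold change of -1.60 ± 0.32 (edgeR adjusted p = 0.0229), and its change in soft tissue sarcoma was -0.86 ± 0.32 (edgeR adjusted p = 0.105). Rps25, which some viruses and cellular mRNAs need for cap-independent initiation (ENSMUSG00000009927, chr9:44407139-44410427, plus strand), had 471 and 383 CPM in the soft tissue sarcomas, 348 and 392 CPM in the osteosarcomas, and 817 and 697 CPM in the NG2 cell libraries. It was 2.05-fold lower in osteosarcoma, -1.03 ± 0.26 (edgeR adjusted p = 0.0421), against -0.83 ± 0.26 (edgeR adjusted p = 0.0753) in soft tissue sarcoma. For both genes all tumour libraries were below both NG2 cell libraries, while the tumour types overlapped each other for Rps25. Rps25 lost its call with any single library left out (edgeR adjusted p = 0.0619 to 0.125) and under upper quartile scaling (0.0504). Rps29 kept it without NG2 cell replicate 2 and without osteosarcoma replicate 1, and lost it without each of the other 4 libraries (edgeR adjusted p = 0.0501 to 0.0743), and both genes lost it in a fit of only the osteosarcomas and NG2 cells (0.0652 for Rps29 and 0.099 for Rps25).

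The 31 genes of the small subunit had a median log2 fold change of -0.32 in soft tissue sarcoma and -0.28 in osteosarcoma, against 0.01 and 0.13 for the 47 tested large subunit genes. Between soft tissue sarcoma and osteosarcoma the medians were 0.04 and -0.00. These differences were not tested.

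Rpl5 and Rpl11, which bind Mdm2, and Rpl26, which binds the p53 mRNA, did not pass the test. Rpl5, which carries 5S ribosomal RNA, had 429 and 525 CPM in the soft tissue sarcomas, 560.0 and 367 CPM in the osteosarcomas, and 664 and 624 CPM in the NG2 cell libraries. Its partner Rpl11 had 1174 and 1033 CPM in the soft tissue sarcomas, 1166 and 1045 CPM in the osteosarcomas, and 1550.3 and 1471 CPM in the NG2 cell libraries. Both lay lower in all 4 tumour libraries without passing the test (edgeR adjusted p between 0.235 and 0.342). Rpl26, which raises the translation of the p53 mRNA, had 345 and 348 CPM in the soft tissue sarcomas, 421 and 346 CPM in the osteosarcomas, and 428 and 274 CPM in the NG2 cell libraries, and its groups overlapped. In the list of 8 genes of this particle and of the p53 pathway, 1 rose and 3 fell in soft tissue sarcoma (12.5% and 37.5%, against 9.89% and 9.4% of all genes), and 1 rose and 2 fell in osteosarcoma (12.5% and 25%, against 10.5% and 11%). Cdkn2a, which encodes inhibitors of Mdm2 and of cell cycle kinases, had 47.1 and 40.00 CPM in the soft tissue sarcomas, 13.9 and 7.68 CPM in the osteosarcomas, and 0.0277 and 0.0458 CPM in the NG2 cell libraries. Mdm2, the ligase that degrades p53, had 36 and 30.2 CPM in the soft tissue sarcomas, 39.7 and 60.02 CPM in the osteosarcomas, and 85.2 and 86.7 CPM in the NG2 cell libraries and fell in soft tissue sarcoma (edgeR adjusted p = 0.0327). Its relative Mdm4, at 14.4 and 12.9 CPM in the soft tissue sarcomas, 25.2 and 17.8 CPM in the osteosarcomas, and 78.8 and 56.8 CPM in the NG2 cell libraries, fell in both tumour types, as did Trp53. Cdkn2a rose in both (edgeR adjusted p = 0.0073 in soft tissue sarcoma and 0.00419 in osteosarcoma).

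The small subunit genes Rps6, Rps14 and Rps19 did not pass the test. Rps6, the substrate of the S6 kinases, had 404 and 408 CPM in the soft tissue sarcomas, 371 and 269 CPM in the osteosarcomas, and 661 and 449 CPM in the NG2 cell libraries. Rps14, the gene lost in the human 5q- syndrome, had 1999 and 1521 CPM in the soft tissue sarcomas, 1644 and 1839.5 CPM in the osteosarcomas, and 3399 and 2204 CPM in the NG2 cell libraries. Rps19, the gene most often mutated in Diamond-Blackfan anaemia, had 929 and 583 CPM in the soft tissue sarcomas, 914 and 693 CPM in the osteosarcomas, and 1757 and 921 CPM in the NG2 cell libraries. Rps6 and Rps14 were lower in every tumour library than in both NG2 cell libraries, whereas for Rps19 the soft tissue sarcomas overlapped the NG2 cells. Their log2 fold changes in the tumours lay between -0.82 and -0.45 (edgeR adjusted p from 0.118 to 0.337).

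Rps3, a DNA repair protein besides its ribosomal role, had 1291 and 832 CPM in the soft tissue sarcomas, 1030.3 and 1033 CPM in the osteosarcomas, and 1927 and 1116 CPM in the NG2 cell libraries. Rpl13a, which can silence inflammatory mRNAs, had 939 and 706 CPM in the soft tissue sarcomas, 844 and 781 CPM in the osteosarcomas, and 1033 and 700.4 CPM in the NG2 cell libraries. Rpl10a, which only some of the ribosomes of mouse stem cells carry, had 317 and 238 CPM in the soft tissue sarcomas, 235 and 228 CPM in the osteosarcomas, and 320.5 and 179.7 CPM in the NG2 cell libraries. Both tumour types overlapped the NG2 cells for Rpl13a and Rpl10a, and the soft tissue sarcomas did for Rps3, where both osteosarcomas were lower. Rpl29, also known to bind heparin, had 111 and 75.8 CPM in the soft tissue sarcomas, 103 and 91.3 CPM in the osteosarcomas, and 86.7 and 56.6 CPM in the NG2 cell libraries, with only the osteosarcomas outside the range of the NG2 cells. None of these genes passed the test.

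None of the stalk proteins, which recruit elongation factors, passed the test. Rplp0 had 2891 and 2659 CPM in the soft tissue sarcomas, 1801 and 1945 CPM in the osteosarcomas, and 2462 and 1597 CPM in the NG2 cell libraries. Rplp1 had 898 and 525 CPM in the soft tissue sarcomas, 530.0 and 755 CPM in the osteosarcomas, and 866 and 458 CPM in the NG2 cell libraries. Rplp2 had 798 and 550.4 CPM in the soft tissue sarcomas, 685 and 672 CPM in the osteosarcomas, and 735 and 408 CPM in the NG2 cell libraries. Rplp0 stood higher in the soft tissue sarcomas than in the other 4 libraries, a log2 fold change of 0.45 ± 0.31 (edgeR adjusted p = 0.329) against NG2 cells and 0.57 ± 0.31 (edgeR adjusted p = 0.434) against osteosarcoma. The X-linked Rps4x, of the small subunit, had 458 and 405 CPM in the soft tissue sarcomas, 676 and 463 CPM in the osteosarcomas, and 857 and 643 CPM in the NG2 cell libraries. Rpl36a, also X-linked and of the large subunit, had 159.7 and 133 CPM in the soft tissue sarcomas, 194 and 138 CPM in the osteosarcomas, and 203 and 99 CPM in the NG2 cell libraries. The soft tissue sarcomas were below both NG2 cell libraries for Rps4x, and all other ranges overlapped those of the NG2 cells. Neither passed the test in a comparison with NG2 cells (edgeR adjusted p from 0.12 to 0.949). Rps27a, which is made as a fusion with ubiquitin, had 414 and 365 CPM in the soft tissue sarcomas, 409 and 313 CPM in the osteosarcomas, and 335 and 179.7 CPM in the NG2 cell libraries, with edgeR adjusted p = 0.282 in soft tissue sarcoma and 0.367 in osteosarcoma.

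Counting groups that do not overlap, regardless of the test, 14 ribosomal protein genes lay higher and 18 lower in soft tissue sarcoma than in NG2 cells (17.9% and 23.1%, against 35.8% and 34.6% of all genes). For osteosarcoma 12 lay higher and 21 lower (15.4% and 26.9%, against 32.7% and 32.4%). In all 4 tumour libraries 6 genes were above both NG2 cell libraries, namely Rpl22, Rpl23a, Rpl35a, Rpl39l, Rps27l and Rpsa. A further 14 were below both, among them Rpl3, Rpl4, Rpl5, Rpl11, Rpl23, Rps6, Rps7, Rps14, Rps25, Rps27, Rps28 and Rps29. The share of all genes that met this condition in all 4 tumour libraries is not given here, so both counts stand without a background.

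Of the tested genes, 65 were called in no comparison on either scale, Rpl3l aside. The highest of their log2 fold changes was that of Rpl23a, at 1.11 in soft tissue sarcoma and 0.86 in osteosarcoma. The lowest in osteosarcoma was -1.19, in Rpl3.

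A second test asked which genes changed relative to the rest of the ribosomal protein genes, with the summed reads of the 79 genes as the library size. In soft tissue sarcoma 4 of 78 genes took a higher share and 1 a lower one, beside a background of 9.7% and 5.78% of all genes on this scale (15.5% in either direction). They were Rpl35a, Rpl39l, Rps2 and Rps27l, and, lower, Rps27. In osteosarcoma 5 took a higher share (Rpl28, Rpl38, Rpl39l, Rps27l and Rpsa) and 3 a lower one, Rps27 and Rps29 among them, beside 12.5% and 7.03% (19.5% in either direction). Rpl38, needed for Hox mRNA translation in the mouse embryo, had 261 and 329.6 CPM in the soft tissue sarcomas, 548 and 417 CPM in the osteosarcomas, and 282 and 164 CPM in the NG2 cell libraries, and its share changed by 1.57 ± 0.35 (edgeR adjusted p = 0.0287) on the log2 scale in osteosarcoma. Rpsa, which is also a laminin receptor, had 1654 and 1064 CPM in the soft tissue sarcomas, 1475 and 1375 CPM in the osteosarcomas, and 1017 and 535 CPM in the NG2 cell libraries, and its share changed by 1.36 ± 0.31 (edgeR adjusted p = 0.0305). Rpl28 of the large subunit had 441 and 243 CPM in the soft tissue sarcomas, 374 and 335 CPM in the osteosarcomas, and 254 and 160.0 CPM in the NG2 cell libraries, and its share changed by 1.24 ± 0.33 (edgeR adjusted p = 0.0436). Rps2, at the entry of the mRNA channel, had 1516 and 1226 CPM in the soft tissue sarcomas, 655 and 853 CPM in the osteosarcomas, and 852 and 536 CPM in the NG2 cell libraries, and its share changed by 1.32 ± 0.32 (edgeR adjusted p = 0.0412) in soft tissue sarcoma.

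Genes with many reads weigh most in this sum. Scaled instead by the geometric mean of the 78 genes, a choice made after seeing the data, 1 gene was higher and 2 lower in soft tissue sarcoma, and 2 higher and 5 lower in osteosarcoma. Rpl28, Rpl38, Rpsa, Rps2 and Rpl35a then missed the threshold, and so did Rps27l in soft tissue sarcoma (edgeR adjusted p from 0.0603 to 0.145). Rpl39l was still called higher and Rps27 lower in both tumour types. With single libraries left out, only Rpl39l in osteosarcoma kept its share call each time, and Rpl28 and Rps29 lost theirs every time (edgeR adjusted p from 0.0579 to 0.129). The other share calls held without 1 to 4 of the 6 libraries, and Rpl35a ranged from 1.23 without soft tissue sarcoma replicate 2 to 2.45 without replicate 1 on the log2 scale.

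No ribosomal protein gene passed the test between soft tissue sarcoma and osteosarcoma. The counts were 0 higher and 0 lower in edgeR, beside a background of 0.0841% and 0.0578% of all genes (0.142% in either direction). On the share of ribosomal protein reads they were also 0 and 0, beside 0.0105% and 0.00526% (0.0158%). At an unadjusted p below 0.05 there were 2 genes (2.56%, against 15.9% of all genes), Rps2 and Rpl3l, and DESeq2 called 0 higher and 1 lower, Rpl3l (DESeq2 adjusted p = 0.0463). Rps2 stood at 1516 and 1226 CPM in the soft tissue sarcomas, against 655 and 853 CPM in the osteosarcomas, a log2 fold change of 0.86 ± 0.34 (edgeR adjusted p = 0.296). In 22 genes (28.2%) both soft tissue sarcomas were above both osteosarcomas, against 25.8% of all genes, and in 12 (15.4%) below them, against 24.5%.

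**Figure D4:**
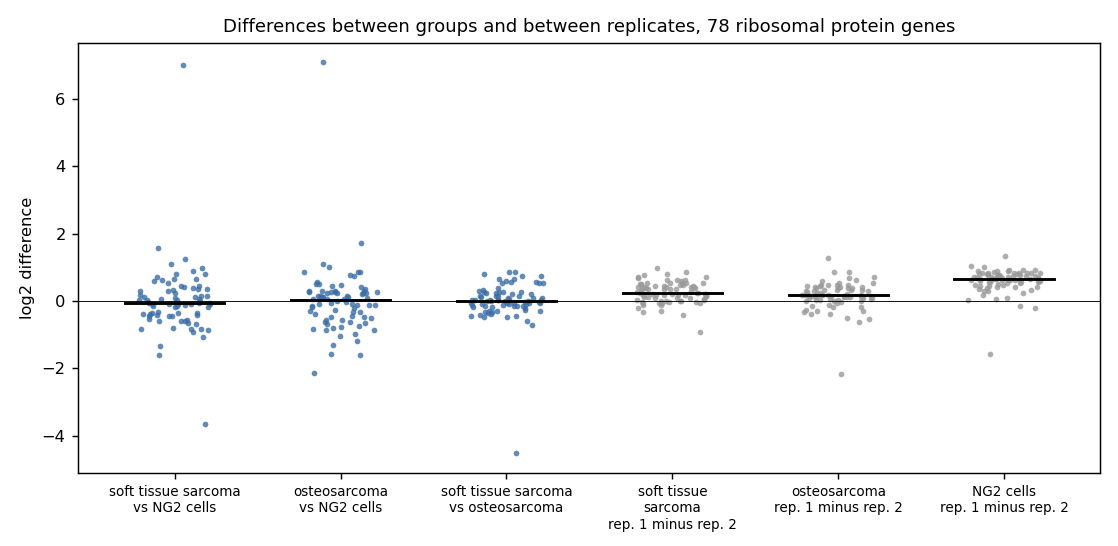
Log2 differences (vertical axis) of the 78 ribosomal protein genes, as fold changes between groups (blue) and as replicate 1 minus replicate 2 within each group (grey), with the median as a line. The NG2 cell replicates differ by a median of 0.66, more than the medians of -0.06, 0.03 and 0.02 of the 3 comparisons between groups.

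Mitochondrial ribosomal proteins are encoded in the nucleus and build the separate ribosome of the mitochondrion. Of 76 tested genes 27 rose (35.5%, against 9.89% of all genes) and 0 fell (against 9.4%) in soft tissue sarcoma, with a median log2 fold change of 0.89. In osteosarcoma 37 rose (48.7%, against 10.5%) and 0 fell (against 11%), with a median of 1.10. At an unadjusted p below 0.05, 47 (61.8%) were higher and 0 lower in soft tissue sarcoma, and 49 (64.5%) were higher and 0 lower in osteosarcoma, against 37.5% and 39.1% of all genes in either direction. DESeq2 also called 0 lower. Their summed level was 5564 and 5803 CPM in the soft tissue sarcomas, 6086 and 6481 CPM in the osteosarcomas, and 3182 and 2677 CPM in the NG2 cell libraries. Mrpl14 had 87.7 and 94.6 CPM in the soft tissue sarcomas, 98.4 and 116 CPM in the osteosarcomas, and 24.4 and 20.9 CPM in the NG2 cell libraries, and its log2 fold change was 2.01 ± 0.26 (edgeR adjusted p = 0.011) in soft tissue sarcoma and 2.24 ± 0.26 (edgeR adjusted p = 0.00741) in osteosarcoma. Mrps28 had 68.4 and 72.3 CPM in the soft tissue sarcomas, 144 and 121 CPM in the osteosarcomas, and 25.9 and 23.8 CPM in the NG2 cell libraries, a log2 fold change of 1.50 ± 0.25 (edgeR adjusted p = 0.0165) in soft tissue sarcoma and 2.41 ± 0.26 (edgeR adjusted p = 0.00636) in osteosarcoma. Mrpl51, at 90.3 and 99.7 CPM in the soft tissue sarcomas, 135 and 125 CPM in the osteosarcomas, and 26.2 and 28.7 CPM in the NG2 cell libraries, rose in both (edgeR adjusted p = 0.0119 in soft tissue sarcoma and 0.00674 in osteosarcoma). Between the tumour types edgeR called 0, and DESeq2 2 higher and 2 lower. There, 4 were higher and 6 lower at an unadjusted p below 0.05, 13.2% in either direction against 15.9% of all genes. With single libraries left out the number that rose ranged from 0 to 28 in soft tissue sarcoma and from 5 to 26 in osteosarcoma, lowest without an NG2 cell or a soft tissue sarcoma library, while the median stayed between 0.73 and 1.25. A fit of only the osteosarcomas and NG2 cells called 8. The difference between the cytosolic and the mitochondrial genes was not tested.

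**Figure D5:**
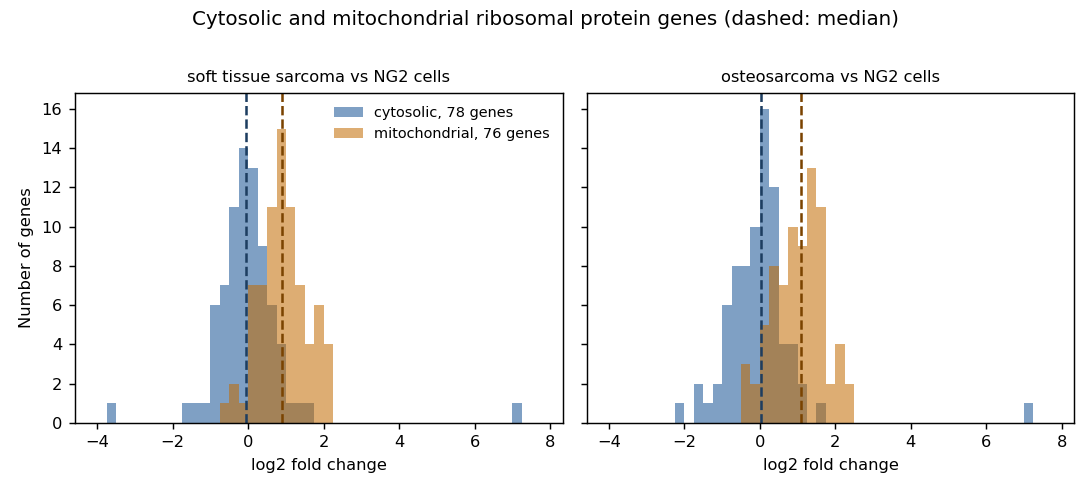
Number of genes (vertical axis) by log2 fold change (horizontal axis) of the 78 cytosolic (blue) and 76 mitochondrial (orange) ribosomal protein genes in soft tissue sarcoma and in osteosarcoma, each against NG2 cells, with dashed medians. The cytosolic medians are -0.06 and 0.03 and the mitochondrial ones 0.89 and 1.10.

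Other ribosomal genes lay outside the symbol rule. Of 8, 0 rose and 1 fell in soft tissue sarcoma (Rps27rt; 12.5%, against 9.4% of all genes), and 0 rose and 3 fell in osteosarcoma (Rps27rt, Rpl22l1 and Fau; 37.5%, against 11%). At an unadjusted p below 0.05, 1 was higher and 3 lower in each, 50% in either direction. Of all genes, 37.5% passed in soft tissue sarcoma and 39.1% in osteosarcoma. Fau, a ubiquitin-like fusion that yields a small subunit protein, had 4659 and 4033 CPM in the soft tissue sarcomas, 2792 and 2093 CPM in the osteosarcomas, and 10758 and 6422 CPM in the NG2 cell libraries, a log2 fold change of -1.81 ± 0.37 (edgeR adjusted p = 0.0237) in osteosarcoma. Rack1, a signalling scaffold on the small subunit, had 1282 and 1189.8 CPM in the soft tissue sarcomas, 1786 and 1259 CPM in the osteosarcomas, and 1317 and 948 CPM in the NG2 cell libraries and was not called.

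Of 27 tested translation factors and TOP mRNAs, 5 rose and 1 fell in soft tissue sarcoma (18.5% and 3.70%, against 9.89% and 9.4% of all genes). In osteosarcoma 4 rose and 2 fell (14.8% and 7.41%, against 10.5% and 11%). Eif4ebp1, which holds back cap-dependent initiation until mTOR inactivates it, had 542 and 598 CPM in the soft tissue sarcomas, 259 and 253 CPM in the osteosarcomas, and 40.7 and 52.1 CPM in the NG2 cell libraries, with log2 fold changes of 3.62 ± 0.28 (edgeR adjusted p = 0.0073) in soft tissue sarcoma and 2.46 ± 0.27 (edgeR adjusted p = 0.00664) in osteosarcoma. Eif6, which keeps free large subunits apart from small ones, had 388 and 369.7 CPM in the soft tissue sarcomas, 327 and 277 CPM in the osteosarcomas, and 129 and 87.8 CPM in the NG2 cell libraries and rose in both tumour types (edgeR adjusted p = 0.0161 in soft tissue sarcoma and 0.0224 in osteosarcoma). Eif4g1, the scaffold of the cap complex, had 269 and 307 CPM in the soft tissue sarcomas, 314 and 288 CPM in the osteosarcomas, and 135 and 107 CPM in the NG2 cell libraries and also rose in both. The helicase Eif4a2 had 91.6 and 67.7 CPM in the soft tissue sarcomas, 61.5 and 76.1 CPM in the osteosarcomas, and 319 and 259 CPM in the NG2 cell libraries and fell in both. Eef1a1, the elongation factor with the most reads of the TOP class, had 5640.4 and 4201 CPM in the soft tissue sarcomas, 4178 and 3143 CPM in the osteosarcomas, and 8601 and 5526 CPM in the NG2 cell libraries and was not called.

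Of 40 ribosome biogenesis genes, 2 rose and 2 fell in each tumour type, 10% in either direction, against 19.3% of all genes in soft tissue sarcoma and 21.5% in osteosarcoma. Nhp2, of the particle that guides pseudouridylation, had 285 and 338 CPM in the soft tissue sarcomas, 378 and 349 CPM in the osteosarcomas, and 128 and 86.4 CPM in the NG2 cell libraries. Bop1, needed to mature the large subunit, had 106 and 132 CPM in the soft tissue sarcomas, 115 and 75.9 CPM in the osteosarcomas, and 40.1 and 24.3 CPM in the NG2 cell libraries. These genes rose in both tumour types. Taf1d, of the RNA polymerase I factor, had 42 and 34.1 CPM in the soft tissue sarcomas, 34.3 and 30.9 CPM in the osteosarcomas, and 135 and 87.8 CPM in the NG2 cell libraries and fell in both. Sbds, which frees Eif6 from the subunit, had 114 and 147 CPM in the soft tissue sarcomas, 104 and 113 CPM in the osteosarcomas, and 227 and 224 CPM in the NG2 cell libraries and fell in osteosarcoma (edgeR adjusted p = 0.0367). Of 10 snoRNA host genes, 2 rose and 1 fell in soft tissue sarcoma, 30% in either direction against 19.3% of all genes, and 2 rose and 2 fell in osteosarcoma, 40% against 21.5%. Snhg18 rose in both tumour types, with 96.9 and 104 CPM in the soft tissue sarcomas, 153 and 84.1 CPM in the osteosarcomas, and 6.95 and 8.41 CPM in the NG2 cell libraries. Snhg20 had 41.3 and 44.7 CPM in the soft tissue sarcomas, 74.4 and 64.7 CPM in the osteosarcomas, and 19.4 and 11.2 CPM in the NG2 cell libraries and rose in both. Snhg15, at 15.5 and 21.9 CPM in the soft tissue sarcomas, 19.1 and 14.3 CPM in the osteosarcomas, and 84.7 and 45.9 CPM in the NG2 cell libraries, fell in both.

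Of 22 regulators of ribosomal protein expression, 1 rose and 2 fell in soft tissue sarcoma (4.55% and 9.09%, against 9.89% and 9.4% of all genes), and 0 rose and 4 fell in osteosarcoma (18.2% lower, against 11%). At an unadjusted p below 0.05, 2 were higher and 9 lower in osteosarcoma, 50% in either direction against 39.1% of all genes. Myc, which drives ribosome production, had 160.4 and 213 CPM in the soft tissue sarcomas, 174 and 96.1 CPM in the osteosarcomas, and 497 and 286 CPM in the NG2 cell libraries, below both NG2 cell libraries in all 4 tumours without passing the test (edgeR adjusted p = 0.126 in soft tissue sarcoma and 0.0528 in osteosarcoma). Mycl had 1.78 and 1.79 CPM in the soft tissue sarcomas, 0.379 and 1.46 CPM in the osteosarcomas, and 6.95 and 8.57 CPM in the NG2 cell libraries and fell in osteosarcoma (edgeR adjusted p = 0.0494). Mycn lay between 0.739 and 2.66 CPM in all libraries and was not called. Larp4, which binds poly(A) tails, had 138 and 148 CPM in the soft tissue sarcomas, 97.2 and 92.4 CPM in the osteosarcomas, and 254 and 271 CPM in the NG2 cell libraries and fell in both tumour types. The Myc antagonist Mxd1 had 24.9 and 11.7 CPM in the soft tissue sarcomas, 15 and 11.9 CPM in the osteosarcomas, and 48.4 and 119 CPM in the NG2 cell libraries and fell in both. Mxi1, its relative, had 43.4 and 32.4 CPM in the soft tissue sarcomas, 9.4 and 8.78 CPM in the osteosarcomas, and 25.4 and 31.2 CPM in the NG2 cell libraries and fell in osteosarcoma. Akt1, upstream of mTOR, had 112 and 103 CPM in the soft tissue sarcomas, 72.7 and 83.2 CPM in the osteosarcomas, and 24.5 and 50.3 CPM in the NG2 cell libraries and rose in soft tissue sarcoma (edgeR adjusted p = 0.0441). Neither Mtor nor Larp1 was called. Mtor had 43.1 and 68.6 CPM in the soft tissue sarcomas, 53.2 and 36.5 CPM in the osteosarcomas, and 38.7 and 24.9 CPM in the NG2 cell libraries. Larp1 had 94.8 and 96.1 CPM in the soft tissue sarcomas, 147 and 116 CPM in the osteosarcomas, and 78 and 91.6 CPM in the NG2 cell libraries.

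Among the genes of these lists named here as called, Cdkn2a, Eif4ebp1, Eif4a2, Snhg18, Mrpl14, Mrps28 and Mrpl51 kept their osteosarcoma call with each library left out, and the others lost theirs without at least 1 library. In soft tissue sarcoma each lost its call without at least 1 library, in fits with fewer samples, and all kept their direction.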

How the data were processed

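The authors deposited raw read counts per Ensembl gene, 1 table per library, with 5 counters of unassigned reads at the end that were left out (no feature 19.5% to 23.4% of all reads in tumours and 33.2% in NG2 cells; ambiguous 2.57% to 3.22%). The tools named in the submitters' processing notes are STAR, HTSeq, DESeq2, Trim Galore, FastQC and cutadapt, on GRCm38 (mm10); versions, settings, strand and annotation release were not given in the sources used here. Per the labels' protocols, cDNA was primed with oligo(dT) and amplified by PCR. The counter of reads aligned to several places was 0 in every library, so how such reads were treated is unknown; named pseudogenes of 55 members (234 genes) held 0.280% to 0.427% of the gene counts. Symbols, types and exon lengths came from GENCODE M21 (36723 of 38561 IDs matched) and promoters from RefSeq.

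Counts were tested with edgeR 4.0.16 in R 4.3.3 (TMM, filterByExpr with min.count 10 and min.total.count 15, quasi-likelihood F test, 1 model of 3 groups, 3 residual degrees of freedom, Benjamini-Hochberg over 19024 genes); the biological coefficient of variation was 0.578. CPM are scaled by TMM. The SE of a log2 fold change was derived from the test, as its absolute value divided by the square root of F. The share test replaced the library size by the members' summed counts. The script was checked on simulated data, with changes set in genes other than the members. Under TMM it called 17 to 28 of 100 genes changed 4-fold, and 54 to 74 of 100 changed 16-fold. A gene that did not pass the test may therefore still have changed. Tried as alternatives were DESeq2 1.42.0, other scalings, no filter, fewer groups, a replicate block, added pseudogene reads and leaving out each library. Members, lists and the genes to be named (called members, extremes per kb, known regulators and paralogs, and the top of each list) were chosen with earlier results of these data known. A few members are counted in the totals but not reported here by name.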

Additional observations from a re-analysis of the deposited data

How the results depend on the processing

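No called gene changed direction under the alternatives tried. The median log2 fold change of the members kept within 0.11 of 0 in each comparison under the other scalings, filters and tests, so its sign carries no direction; that of osteosarcoma against NG2 cells was -0.03 with DESeq2 size factors. With single libraries left out it ranged from -0.31 to 0.32 for soft tissue sarcoma against NG2 cells, -0.27 to 0.39 for osteosarcoma against NG2 cells, and -0.14 to 0.20 between the tumour types. The share of counts ranged from 4.84% to 5.70%, 4.31% to 5.01% and 5.03% to 6.83% in soft tissue sarcoma, osteosarcoma and NG2 cells.

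Counting called members, DESeq2 gave 5 higher and 6 lower in soft tissue sarcoma, 8 lower in osteosarcoma, and 1 lower between the tumour types. On the share it gave, in the same order, 15 higher and 2 lower, 18 higher, and 1 lower. The percent of all genes that DESeq2 called is not given here, so these counts stand without a background. A fit of only the 2 groups compared gave 1 lower in osteosarcoma, and on the share 7 higher and 2 lower in soft tissue sarcoma and 1 higher and 0 lower in osteosarcoma. The geometric mean, chosen after seeing the data, gave on the share 1 higher and 2 lower, and 2 higher and 5 lower. With single libraries left out the members called ranged, in soft tissue sarcoma, from 0 to 3 higher and 0 to 2 lower (share 0 to 7 and 0 to 2), and in osteosarcoma from 1 to 2 higher and 0 to 4 lower (share 1 to 5 and 0 to 2); between the tumour types all were 0. Such fits have fewer samples, and a lone library is then assumed to vary like the other groups.

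The replicate numbers did not pair the samples: the deviations of same-numbered libraries from their group means correlated at -0.104 for soft tissue sarcoma with osteosarcoma, -0.0185 for soft tissue sarcoma with NG2 cells, and 0.0756 for osteosarcoma with NG2 cells. With the replicate block 1 member was higher and 1 lower in soft tissue sarcoma, and 2 higher and 4 lower in osteosarcoma. Rpl23, Rpl35a and Rps27l then lost their call in soft tissue sarcoma (edgeR adjusted p = 0.0541, 0.0834 and 0.0599), as did Rpl23 and Rps25 in osteosarcoma (0.0522 and 0.0713), where Rpl3 passed (0.0488); on the share Rpl35a lost its call in soft tissue sarcoma (0.0564). A crossed pairing of the tumours, added after seeing the data, called 0 higher and 0 lower.

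Counting error is small for all members but Rpl3l, Rpl10l and, in NG2 cells with 8 and 71 reads, Rpl39l; 2 libraries per group limit every test. Reads of near-identical copies and of antisense genes could not be separated.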
